A study of Mus musculus with 19 samples.

Results

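Aorta of Fbn1 hypomorphic mice was compared with wild-type aorta at 60 days of age, the oldest of the 3 ages in a series on a mouse model of Marfan syndrome. The members of the comparison were the genes with a value above 0 in both genotypes and a mean of at least 1 FPKM (sequenced fragments relative to transcript length and to the total mapped), which 13992 of the 37668 listed genes met. The hypomorphs carry the Fbn1 allele mgR (Fbn1mgR/mgR in the series' design text) and were male, on the C57BL/6 background. The wild-type animals were male, of the same background and of the same age, and the labels name no treatment for either genotype. By the labels, 3 hypomorph and 2 wild-type libraries were made at this age, of 19 libraries in 6 groups in all.

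The authors deposited 1 value per gene and genotype, pooled over the libraries of a group. No value therefore has an SD or an n, and the differences below have no replicate check and no test. They describe these pools. All listed values together came to 555443 FPKM for the hypomorph and 602727 FPKM for wild type, and sequencing depth is unknown. Of the genes left out, 759 were listed at 0 in the hypomorph, 2220 in wild type and 14107 in both, and 6590 were below the minimum mean. An exact 0 can be a failed estimate in these tables, since abundant aortic transcripts are listed at 0 at the other ages. At the minimum, the last gene kept had a mean of 1.00007 FPKM and the first left out 0.999917 FPKM. Both groups carried transcripts that define the aortic wall: the smooth muscle actin Acta2 stood at 4140 FPKM in the hypomorph with 4276 in wild type, and Myh11, the smooth muscle myosin heavy chain, at 585 and 756.

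Fibrillin-1 is the main protein of microfibrils, the threads on which elastin is laid down to make the elastic lamellae of the aortic wall. Microfibrils also hold latent TGF-beta in the matrix through latent TGF-beta binding proteins, and they anchor smooth muscle cells to the lamellae. Loss of fibrillin-1 in Marfan syndrome is known for fragmented lamellae, aneurysm and dissection of the thoracic aorta, and mice with the mgR allele are known to make too little fibrillin-1 and to develop aortic aneurysm.

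Differences are given as log2(FPKM + 1), hypomorph minus wild type, a scale that understates differences of low genes, and folds in brackets are plain ratios of FPKM. Counts of genes use 1.5-fold and 2-fold thresholds on that log2 scale. At 2-fold, 774 genes (5.53% of those compared) stood higher in the hypomorph and 276 (1.97%) lower. At 1.5-fold, 1665 (11.9%) stood higher and 829 (5.92%) lower, so 66.8% of those genes were on the higher side. The median of all compared genes was 0.11, and that shift matters for the split: with the pools scaled by the median ratio of their genes, 1306 stood higher and 1049 lower (55.5% higher), and with equal sums of FPKM 2284 higher and 625 lower (78.5% higher). The percentages of all genes at 1.5-fold, 11.9% higher and 5.92% lower, and the median of 0.11 are the background for every gene list below.

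**Figure D1:**
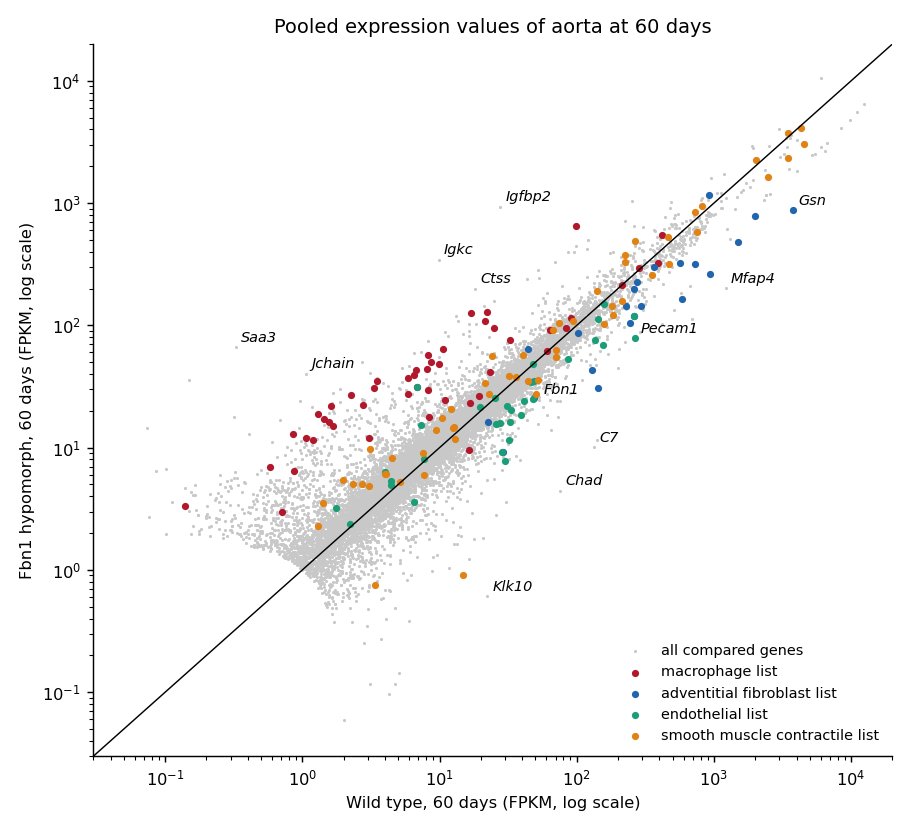
FPKM of each compared gene in hypomorph (vertical, log scale) against wild type (horizontal, log scale) at 60 days, 1 point per gene and 1 pooled value per genotype; the line marks equal values. Macrophage genes (red) lie above the line except for 3, fibroblast genes (blue) below it except for 2, and contractile genes (orange) on both sides of it.

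The widest gaps on the higher side were in acute phase, antibody, monocyte chemokine and macrophage transcripts. Saa3, an acute phase protein made by macrophages and stromal cells, stood at 66.0 FPKM in hypomorphic aorta and 0.328 in wild type (difference 5.66). Igfbp2, which binds insulin-like growth factors, stood at 934 against 27.6 FPKM (5.03, or 33.8-fold). It lies at chr1:72871077-72899048 of mm9, in a span shared with no other gene, and at this level it was among the abundant transcripts of the hypomorphic aorta. Ctss, cathepsin S, an elastin-degrading protease of macrophages (chr3:95330708-95360325 of mm9), stood at 199 against 18.2 FPKM (3.38, or 10.9-fold).

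Antibody transcripts made up 5 of the 15 largest positive differences. The light chain constant segment Igkc stood at 344 against 9.83 FPKM, and the antibody joining chain Jchain at 40.3 against 1.06. Igkv2-112, Ighg2b and Ighv7-3 stood at 35.8 against 0.150, 30.4 against 1.89 and 16.8 against 0.690 FPKM. Antibody segments resemble each other, so reads can be split between them and single values are uncertain. The remaining genes of the 15 were the monocyte chemokines Ccl8 and Ccl7, the interferon-induced chemokine Cxcl10, the myeloid genes Ms4a4c, Ms4a6b and Slfn4, and Lcn2, an iron-sequestering acute phase protein, at 41.0 against 3.12 FPKM.

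The 15 most negative differences were in secreted matrix proteins, a complement component, and receptors and enzymes. Chad, chondroadherin, a collagen-binding leucine-rich protein of cartilage and tendon, stood at 4.44 against 75.3 FPKM (-3.81), though its span lies within that of Acsf2. C7, a terminal complement component, stood at 10.1 against 133.8 FPKM (-3.61), and Angptl7, a secreted angiopoietin-like protein, at 11.6 against 139.5 (-3.48), in a span shared with Mtor. Cytl1, a secreted cytokine-like protein of cartilage, was the most abundant of these genes after Mfap4, at 112 against 687 FPKM (-2.60). Klk10, a kallikrein-related serine protease, had the most negative difference (0.607 against 22.3 FPKM, -3.85). Its listed span is shared with 7 other kallikrein genes, of which Klk8 stood at 1.33 against 9.57 FPKM and Klk11 at 0.116 against 3.12.

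Receptors of vessel tone and a hedgehog inhibitor were also among these 15. Vipr2, the receptor of vasoactive intestinal peptide, stood at 0.908 against 14.8 FPKM (-3.05), and Ptgfr, the prostaglandin F receptor, at 1.23 against 16.3 (-2.95). Hhip, a decoy receptor that blocks hedgehog ligands, stood at 2.79 against 25.7 FPKM (-2.82), and the ligand Dhh, desert hedgehog, at 1.78 against 8.37. Mylk2, a myosin light chain kinase known from skeletal muscle, stood at 1.04 against 11.7 FPKM (-2.64), Aldh3a1, an aldehyde dehydrogenase, at 1.79 against 17.9 and Fam107a at 3.61 against 30.5. The last 3 were Clec3a, a cartilage lectin, Ppp1r1b, a phosphatase inhibitor, and Serpina1b, a serpin with near-identical copies, for which reads are uncertain.

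Fbn1 itself (ENSMUSG00000027204, chr2:125126330-125333729 of mm9) stood at 24.6 FPKM in the hypomorph with 52.7 in wild type, a 2.14-fold gap (-1.07). The microfibril and elastin list, which counts Fbn1 itself, had 14 compared members. Of these, 7 including Fbn1 were at least 1.5-fold lower, 1 was higher and 6 were within 1.5-fold, with a median of -0.57. Mmrn2, also among the 7, is counted in the endothelial list as well. Mfap4, a microfibril-associated glycoprotein that binds fibrillin-1 and elastin (chr11:61298933-61307908 of mm9, a span shared with Mapk7), stood at 202 against 1216 FPKM (-2.59, or 6.02-fold lower). Fbln1, encoding fibulin-1, an elastin-associated matrix protein, stood at 103 against 418 FPKM (-2.01), and Mmrn2, an endothelial matrix glycoprotein of the same EMILIN family as Emilin1, at 11.5 against 32.2 (-1.41). The microfibril-associated glycoproteins Mfap2 and Mfap5, which bind fibrillin, stood at 30.9 against 57.0 and 323 against 568 FPKM.

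Elastin stood higher, and genes that take part in its assembly and cross-linking stood on both sides. Eln was at 1593 against 946 FPKM (0.75), the 1 microfibril or elastin gene at least 1.5-fold higher; it was listed at 0 in both genotypes at 16 and 30 days, so it can be compared at this age alone. Fbln5 and Efemp2, the fibulins needed for elastic fibre assembly, stood at 182 against 160 and 227 against 178 FPKM, both within 1.5-fold. Among 5 cross-linking enzymes 1 stood higher and 1 lower. Lox, lysyl oxidase, stood at 93.3 against 54.2 FPKM (0.77) and Loxl4 at 2.49 against 4.64 (-0.69), while Loxl1, the most abundant, stood at 244 against 265.

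Collagens stood on both sides, with 8 of 30 compared members at least 1.5-fold higher, 3 lower and a median of 0.02. The basement membrane chains Col4a1 and Col4a2, whose spans overlap each other, stood at 277 against 145 and 248 against 118 FPKM. Col18a1, which carries endostatin, stood at 641 against 303 FPKM (1.08), and Col8a1, a short-chain collagen made by activated smooth muscle cells, at 34.4 against 11.8 (1.47). On the lower side were the beaded filament chains Col6a1 and Col6a2, at 137 against 228 and 142 against 270 FPKM. The major fibrillar chains differed by less than 1.5-fold: Col1a1 stood at 1347 against 1830, Col1a2 at 1234 against 1567 and Col3a1 at 1205 against 1131 FPKM. Among the processing enzymes the procollagen C-proteinase enhancer Pcolce stood lower (392 against 623 FPKM) and the prolyl hydroxylase subunit P4ha3 higher (3.71 against 1.40). The medians of the fibrillar and network chains crossed 0 under median ratio scaling, so no direction is given for either.

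Proteoglycans and matricellular proteins stood on opposite sides. Of 14 compared proteoglycans, 9 were at least 1.5-fold lower and 1 higher, with a median of -0.73. The collagen-binding leucine-rich members led the lower side with Chad, followed by Omd at 5.56 against 24.8 FPKM (-1.98), Dcn, decorin, at 777 against 1993 (-1.36), and Prelp at 173 against 364. Biglycan, Bgn, the most abundant, was nearly level at 3427 against 3367 FPKM. The exception on the higher side was Acan, aggrecan, the large proteoglycan of cartilage, at 23.9 against 4.68 FPKM (2.13).

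Of 17 matricellular proteins, which signal to cells more than they build the matrix, 9 were at least 1.5-fold higher and 3 lower, with a median of 0.91. Spp1, osteopontin, stood at 145 against 21.1 FPKM (2.73), Cthrc1, a secreted protein with collagen repeats, at 29.8 against 5.70 (2.20) and Tnc, tenascin-C, at 40.5 against 9.27 (2.01). Fn1, fibronectin, stood at 707 against 225 FPKM (1.65). Thbs4 and Tnxb, thrombospondin-4 and tenascin-X, stood lower at 1.99 against 7.15 and 37.2 against 81.7 FPKM. Sparc, the most abundant member, stood at 2848 against 3385 FPKM.

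**Figure D2:**
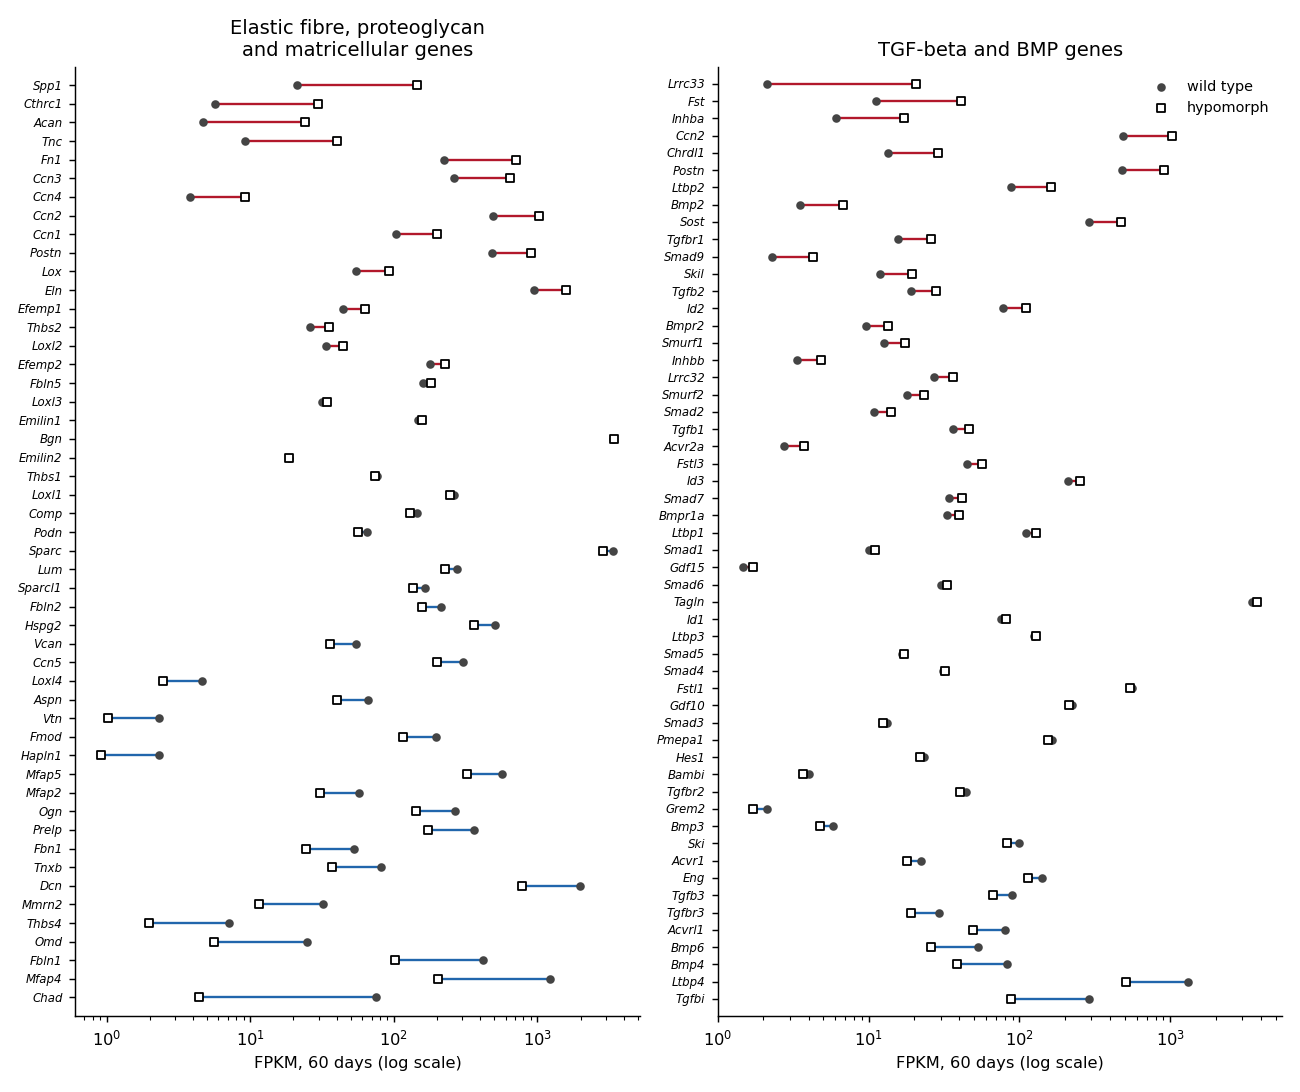
Pooled FPKM at 60 days (log scale) of the genes reported here among compared elastic fibre, proteoglycan and matricellular genes (left) and TGF-beta and BMP genes (right), with wild type as filled circles and hypomorph as open squares, joined in red where the hypomorph was higher and in blue where it was lower. Spp1 and Lrrc33 head the panels, and Chad and Tgfbi close them.

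Proteases that cut the matrix and their inhibitors were both found among the higher genes. Of 23 compared metalloproteases, 9 stood at least 1.5-fold higher and 3 lower (median 0.14); among those with a mean of at least 5 FPKM the counts were 2 and 3, so the higher side of this list rested on genes of low level. Mmp13, a collagenase, stood at 6.53 against 0.499 FPKM (2.33), Adam8 at 6.16 against 1.01, and Mmp12, the macrophage elastase, at 6.09 against 1.35 (1.59). Mmp14, the membrane-bound activator of Mmp2, stood at 72.2 against 31.1 FPKM (1.19), and Mmp2 itself, a gelatinase made by mesenchymal cells, at 112 against 197 (-0.81).

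Among 15 compared cathepsins and other proteases, 5 stood at least 1.5-fold higher and 1 lower (median 0.15). Ctsc, an activator of leukocyte serine proteases, stood at 84.2 against 14.8 FPKM (2.43) beside Ctss, and Plau, urokinase, at 14.03 against 5.13. The broadly expressed lysosomal Ctsd was level, at 595 against 585 FPKM, and Htra3 stood lower at 97.6 against 220. The 13 inhibitors had 4 members higher and 3 lower (median -0.24). Slpi, which blocks leukocyte elastase, stood at 19.2 against 1.57 FPKM (2.98). Timp1, an inhibitor of metalloproteases whose span is shared with Araf and 5 others, stood at 243 against 53.2 FPKM (2.17). Serpinf1, a serpin abundant in fibroblasts, stood lower at 477 against 1493 FPKM (-1.64).

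In the TGF-beta and BMP pathway, ligands are secreted in latent complexes, bind paired receptors and act through SMAD proteins. Of 17 compared ligands and latent binding proteins, 4 stood at least 1.5-fold higher and 3 lower, with a median of 0.22. The 3 TGF-beta ligands Tgfb1, Tgfb2 and Tgfb3 stood within 1.5-fold, at 46.4 against 36.4, 28.1 against 19.0 and 66.4 against 89.1 FPKM. Of the proteins that hold the latent ligand, Lrrc33, the carrier on macrophages and microglia, stood at 20.5 against 2.12 FPKM (2.78). Ltbp2, which binds microfibrils, stood at 163 against 87.7 FPKM (0.89), and Ltbp4, which also takes part in elastic fibre assembly, at 511 against 1312 (-1.36). Inhba, the activin A subunit, stood higher at 17.0 against 6.09 FPKM, and Bmp4 and Bmp6 lower at 38.5 against 83.2 and 25.8 against 52.9.

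Receptors and SMADs stood on both sides, with 2 of 15 at least 1.5-fold higher, 2 lower and a median of 0.04, which was -0.07 under median ratio scaling. Tgfbr1, the type I receptor, stood at 25.8 against 15.8 FPKM (0.68), and Acvrl1, the endothelial type I receptor known as ALK1, at 49.3 against 80.6 (-0.70). The signal transducers Smad2, Smad3 and Smad4 stood at 14.1 against 10.9, 12.5 against 13.3 and 32.1 against 31.3 FPKM. Of 13 inhibitors 4 stood higher and 0 lower, led by Fst, the activin trap follistatin, at 40.9 against 11.2 FPKM (1.79); Sost, a BMP and Wnt inhibitor, stood at 473 against 289 (0.71).

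Genes often used as targets of this pathway did not stand on 1 side: 5 of 12 were at least 1.5-fold higher and 1 lower, with a median of 0.39. Ccn2 (1025 against 489 FPKM), Postn (905 against 482) and Ltbp2 were among those on the higher side. Tgfbi, a secreted matrix protein named for its induction by TGF-beta, stood at 88.0 against 290 FPKM (-1.71), and the SMAD-responsive Id1, Smad7 and Pmepa1 stood within 1.5-fold.

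Nppa, atrial natriuretic peptide, stood at 108 against 13.7 FPKM (2.89), and Nppb at 3.85 against 0.234 (1.97). They led the renin-angiotensin and natriuretic list, in which 6 of 14 compared members stood at least 1.5-fold higher and 2 lower (median 0.18). Nppb was below 1 FPKM in wild type and met the minimum through the hypomorph. With at least 1 FPKM in both groups 5 of 13 stood higher and 2 lower (median 0.09). Under median ratio scaling 6 of 14 stood higher and 4 lower, so no direction is given for this list. Enpep, the aminopeptidase that trims angiotensin II, stood at 16.4 against 4.03 FPKM (1.79), and Npr3, the clearance receptor of natriuretic peptides, at 9.96 against 3.44. Agtr1a, the main angiotensin II receptor of vessels, stood at 3.34 against 1.44 FPKM (0.83), and Ace, the converting enzyme carried by endothelium, at 190 against 285 (-0.58), just inside 1.5-fold. Nppa is also an atrial heart muscle transcript. In the cardiomyocyte list, which includes Nppa itself, 6 of 14 compared genes stood higher and 0 lower. The sums over all its genes were 699 FPKM against 470, of which Nppa alone made 108 and 13.7. The atrial light chains Myl4 and Myl7 stood at 76.3 against 51.4 and 59.2 against 48.1. The part of heart tissue in the Nppa difference was not tested.

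Contractile genes of smooth muscle stood on both sides. Of 55 compared members 12 stood at least 1.5-fold higher and 6 lower (median 0.20), and these counts depended on scaling: with equal sums of FPKM they were 20 and 3. Of the 29 filament genes and their regulators 4 stood higher and 4 lower (median 0.14). Prkg1, the cyclic GMP-dependent kinase of relaxation, stood at 9.76 against 3.10 FPKM (1.39), Vcl, vinculin, at 55.9 against 24.2 (1.17) and Cald1, caldesmon, at 493 against 268 (0.88). On the lower side were Des, desmin, at 27.4 against 50.5 FPKM (-0.86), Actg2, the enteric-type actin, at 102 against 158 and the tropomyosin Tpm2 at 1636 against 2457. The abundant light chain Myl9 stood at 3037 against 4526 FPKM (-0.58), just inside 1.5-fold.

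The differences of these 29 genes went with transcript length. Across them the Spearman correlation of difference with the length of the longest annotated transcript was 0.58 (Pearson r 0.54 on log10 length), against 0.18 over the 13424 compared genes with a length; genes of 1 pair of pools share those pools and are not independent. Among all compared genes, the 3358 with the shortest transcripts (up to 1939 bases) had a median difference of -0.01, and the 3352 with the longest (from 4656 bases) 0.19. When each difference was taken relative to genes of similar length, a setting chosen after seeing the data, 7 contractile genes stood at least 1.5-fold higher and 10 lower. The direction of the contractile list as a whole is therefore not given here, and the part of transcript length in single differences was not tested.

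**Figure D3:**
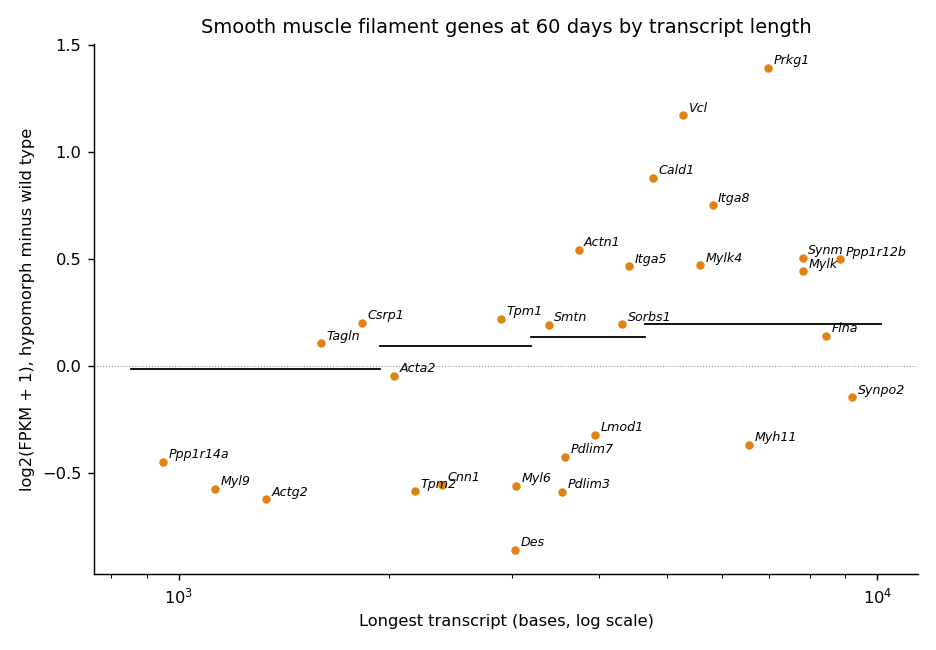
Difference between genotypes at 60 days, log2(FPKM + 1) of hypomorph minus wild type, of 29 smooth muscle filament genes against the length of the longest annotated transcript in bases (log scale); each bar is the median difference of all compared genes in 1 of 4 classes of transcript length. Short transcripts such as Myl9 and Actg2 lie below 0, and Prkg1, Vcl and Cald1, in the class of longest transcripts, lie highest.

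Among 10 compared transcription regulators of this programme, 3 stood at least 1.5-fold higher and 0 lower: Mef2c at 20.8 against 12.2 FPKM, Foxs1 at 17.6 against 10.4 and Myocd, the coactivator that drives contractile genes, at 33.9 against 21.4 (0.64). Klf4, a repressor of contractile genes, stood at 35.9 against 52.3 FPKM (-0.53), within 1.5-fold. Of 16 channels and receptors, 5 stood higher and 2 lower (median 0.50). The calcium channel Cacna1h stood at 5.41 against 1.98 FPKM, and the vasopressin receptor Avpr1a, at 0.758 against 3.40, joined Vipr2 on the lower side.

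Macrophage transcripts stood higher in most cases. Of 48 compared members of the list, 37 were at least 1.5-fold higher and 1 lower, with a median of 2.24; 5 of the 48 had wild-type values below 1 FPKM and met the minimum through the hypomorph. All 20 genes listed for macrophage identity stood at least 1.5-fold higher (median 2.5), and their summed level was 1526 FPKM against 255. Ccr2, the receptor that brings monocytes into tissue, stood at 18.8 against 1.29 FPKM (3.11), and Adgre1, the F4/80 antigen, at 26.9 against 2.26 (3.10). Lyz2, lysozyme, the most abundant, stood at 644 against 98.4 FPKM (2.70). In bulk tissue more cells of a type and more RNA per cell cannot be told apart, and the same holds for fewer cells and less RNA.

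Markers of resident-type macrophages stood higher beside those of monocytes: 7 of 10 were at least 1.5-fold higher and 0 lower, with Mrc1, the mannose receptor, at 30.5 against 3.33 FPKM (2.86), F13a1 at 50.4 against 8.70 and Lyve1 at 31.2 against 6.83. Of 18 compared phagocytic receptors and lysosomal genes 10 stood higher and 1 lower, and with at least 1 FPKM in both groups 6 of 14 stood higher. Within that group the antibody and lectin receptors Fcgr1 (22.03 against 1.62 FPKM), Fcgr4 (11.98 against 1.05) and Clec4n (12.8 against 0.853) had the wide gaps. The general lysosomal genes Lamp1 and Lamp2 and the receptor kinase Axl, which many cell types express, stood within 1.5-fold, and Gpnmb, a glycoprotein of lipid-loaded macrophages, stood lower at 9.65 against 16.5 FPKM.

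Of 21 compared chemokines 18 were at least 1.5-fold higher and 1 lower, with a median of 2.13. Of these, 6 had wild-type values below 1 FPKM and met the minimum through the hypomorph; among the 15 with at least 1 FPKM in both groups 12 stood higher and 1 lower. Ccl8 stood at 50.04 against 2.70 FPKM (3.79), Ccl7 at 24.3 against 0.969 (3.68), Cxcl10 at 27.9 against 1.67 (3.44) and Ccl12 at 23.8 against 1.87 (3.11), all ligands that draw monocytes or T cells. The 1 on the lower side was Ccl11, eotaxin, a chemokine of adventitial fibroblasts, at 9.13 against 28.9 FPKM (-1.56). Cxcl12, the most abundant, stood at 207 against 175.

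Cytokines divided more evenly, with 5 of 10 compared at least 1.5-fold higher and 1 lower, and 2 of 7 higher with at least 1 FPKM in both groups; Csf3, Ifng and Il17a were listed at 0 in wild type and could not be compared. Il1b stood at 11.0 against 0.602 FPKM (2.91) and Il6 at 6.64 against 0.102 (2.79), with the receptor antagonist Il1rn at 5.05 against 0.252. Il33, an alarmin of stromal cells, stood lower at 27.3 against 46.3 FPKM. Of 24 compared receptors and adhesion molecules 18 stood higher and 1 lower, but 10 of the 24 were below 1 FPKM in wild type, and with at least 1 FPKM in both groups 8 of 14 stood higher. The endothelial adhesion molecule Vcam1 stood at 85.5 against 53.4 FPKM and Icam1 at 19.0 against 24.3. Of 13 acute phase proteins and enzymes 8 stood higher and 0 lower, among them Hp, haptoglobin, at 332 against 69.8 FPKM and Ch25h, which makes 25-hydroxycholesterol, at 8.00 against 1.17. In wild type 2 of these 13 were below 1 FPKM, and with at least 1 FPKM in both groups 6 of 11 stood higher.

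The C1q chains led the complement components. C1qa, C1qb and C1qc, the 3 chains of C1q, which macrophages make, stood at 397 against 86.7, 284 against 52.0 and 241 against 43.3 FPKM. C3 and the stromal proteases C1ra and C1s1 stood within 1.5-fold, with C3 at 229 against 247. Together 6 of 12 compared components stood at least 1.5-fold higher and 1, C7, lower. Of 9 regulators and receptors 4 stood higher, the leukocyte receptors Itgb2, C5ar1, C3ar1 and Itgax, and 1 lower.

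Interferon-induced transcripts stood higher among antiviral effectors of the Oas and Mx families, while several guanylate-binding and immunity-related GTPases stood within 1.5-fold. Of 43 compared members 26 stood at least 1.5-fold higher and 0 lower, with a median of 0.77; 4 of the 43 had wild-type values below 1 FPKM. The RNA-sensing synthetases Oas2 and Oas1a stood at 9.53 against 0.954 (2.43) and 14.99 against 2.19 FPKM (2.33), and Oas1a has close copies that can share its reads. Mx1, an antiviral GTPase, stood at 6.06 against 0.463 FPKM, and Irf7, the transcription factor that amplifies type I interferon, at 82.3 against 11.6 (2.73) in a span shared with Phrf1. By contrast Gbp2, Gbp3, Gbp7, Igtp, Iigp1 and Irgm1 lay between -0.33 and 0.46, with Gbp2 at 27.8 against 26.4 FPKM and Igtp at 19.3 against 24.5; these 6 were set side by side after their values were seen. Ifi47, an immunity-related GTPase of the same list, stood at 17.8 against 11.01 FPKM (0.65), past 1.5-fold. The abundant Ifitm3 and Ifi27 stood at 431 against 383 and 274 against 304 FPKM.

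Some promoters of both kinds of gene hold the same short motif, and a few of those that hold it are printed. The RefSeq windows on GRCm38.p6 run from 250 bases before the annotated start to 50 after it. The motif searched was GAAANNGAA on either strand, the core of the interferon-stimulated response element, and capitals mark each match. Each line gives 59 bases, 5′ to 3′ on the strand of the gene. The first 4 genes stood at least 1.5-fold higher, Isg15 at 45.0 against 11.1 FPKM, Ifit1 at 12.2 against 3.54, Oas1a as above and Rsad2 at 6.89 against 0.933, and the last 3 stood within 1.5-fold.
Isg15, chr4:156200863-156200921, minus strand: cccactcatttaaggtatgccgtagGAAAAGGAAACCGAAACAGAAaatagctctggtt
Ifit1, chr19:34640755-34640813, plus strand: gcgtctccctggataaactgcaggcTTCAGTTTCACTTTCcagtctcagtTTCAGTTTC
Oas1a, chr5:120907512-120907570, minus strand: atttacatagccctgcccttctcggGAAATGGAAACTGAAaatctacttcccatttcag
Rsad2, chr12:26456538-26456596, minus strand: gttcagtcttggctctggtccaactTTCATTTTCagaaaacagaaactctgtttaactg
Gbp2, chr3:142620580-142620638, plus strand: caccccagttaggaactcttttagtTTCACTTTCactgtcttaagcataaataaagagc
Gbp7, chr3:142530259-142530317, plus strand: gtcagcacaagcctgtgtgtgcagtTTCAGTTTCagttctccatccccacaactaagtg
Igtp, chr11:58199497-58199555, plus strand: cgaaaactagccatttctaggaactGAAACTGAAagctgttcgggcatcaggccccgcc

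Of the 28 compared effectors 21 have a promoter window and could be searched. The motif was found in 8 of 12 effector promoters (66.7%) whose genes stood at least 1.5-fold higher and in 6 of 9 (66.7%) whose genes stood within 1.5-fold. Among all RefSeq promoters of this length 2638 of 27025 (9.76%) hold it. Of the promoters printed above, those of Isg15 and Ifit1 have 3 matches each, that of Oas1a 2, and those of Rsad2, Gbp2, Gbp7 and Igtp 1 each. A match is a description of letters and not a binding site, and these counts did not separate the effectors that stood higher from those that did not.

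The promoter of Cxcl10 is printed whole, since Cxcl10 is both interferon-induced and among the 15 largest positive differences. It holds the same motif and, 158 bases before the start, a match to the NF-kB motif GGANTTTCC, both in capitals. That motif was also searched on either strand, and here it reads on the strand opposite to the gene. Other spellings of NF-kB sequences were not searched.
Cxcl10, chr5:92348840-92349139 of GRCm38.p6, minus strand: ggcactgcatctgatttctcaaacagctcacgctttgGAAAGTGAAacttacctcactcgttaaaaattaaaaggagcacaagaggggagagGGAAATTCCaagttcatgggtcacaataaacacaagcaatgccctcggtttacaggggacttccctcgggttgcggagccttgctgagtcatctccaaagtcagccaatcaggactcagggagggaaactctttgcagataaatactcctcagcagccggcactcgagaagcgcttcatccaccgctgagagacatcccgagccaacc
The NF-kB motif was found in 4 of 17 chemokine promoters, those of Cxcl1, Cxcl2, Cxcl3 and Cxcl10, and in 1.45% of all RefSeq promoters. In the files' own build, mm9, the listed span of Cxcl10 is shared with Art3, Cxcl11 and a predicted gene, so part of its reads may belong to a neighbour.

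Antigen presentation genes stood higher, with the wider gaps in class II. Of 21 compared members 14 stood at least 1.5-fold higher and 0 lower (median 1.01), and 11 of the 18 with at least 1 FPKM in both groups stood higher. The class II chain H2-Ab1 stood at 450 against 98.9 FPKM (2.17) and the invariant chain Cd74 at 1033 against 254 (2.02), whereas the class I genes B2m, H2-K1 and H2-D1 stood within 1.5-fold, at 1101 against 820, 677 against 484 and 609 against 431. Whether the gaps of the 2 classes differ was not tested.

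Lymphocyte transcripts stood higher in the hypomorph, those of T and NK cells at low levels in both groups. Of 25 T and NK cell markers 15 were compared and 14 of these stood at least 1.5-fold higher, but 10 of the 15 had wild-type values below 1 FPKM and met the minimum through the hypomorph. The summed level of the 25 was 78.0 FPKM against 15.4, with Ccl5, a chemokine of T and NK cells, at 18.6 against 2.59 and Cd3g at 6.29 against 1.06. Of 20 B and plasma cell markers 19 are in the data, 8 were compared and 7 of these stood higher. In wild type 3 of the 8 were below 1 FPKM, and of the 5 markers with at least 1 FPKM in both groups 4 stood higher. Their sum over the list was 563 FPKM against 102, of which Igkc alone made 344 and 9.83. Of 16 neutrophil and mast cell markers 7 were compared and 7 stood higher, with S100a8 at 11.8 against 2.17 FPKM. Of the 7, 2 were below 1 FPKM in wild type and met the minimum through the hypomorph. With at least 1 FPKM in both groups 5 of 5 stood higher, with no filter on the mean 8 of 14, and under median ratio scaling 6 of 7. The neutrophil gene Ly6g was listed at 0 in both groups and Mpo in wild type.

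**Figure D4:**
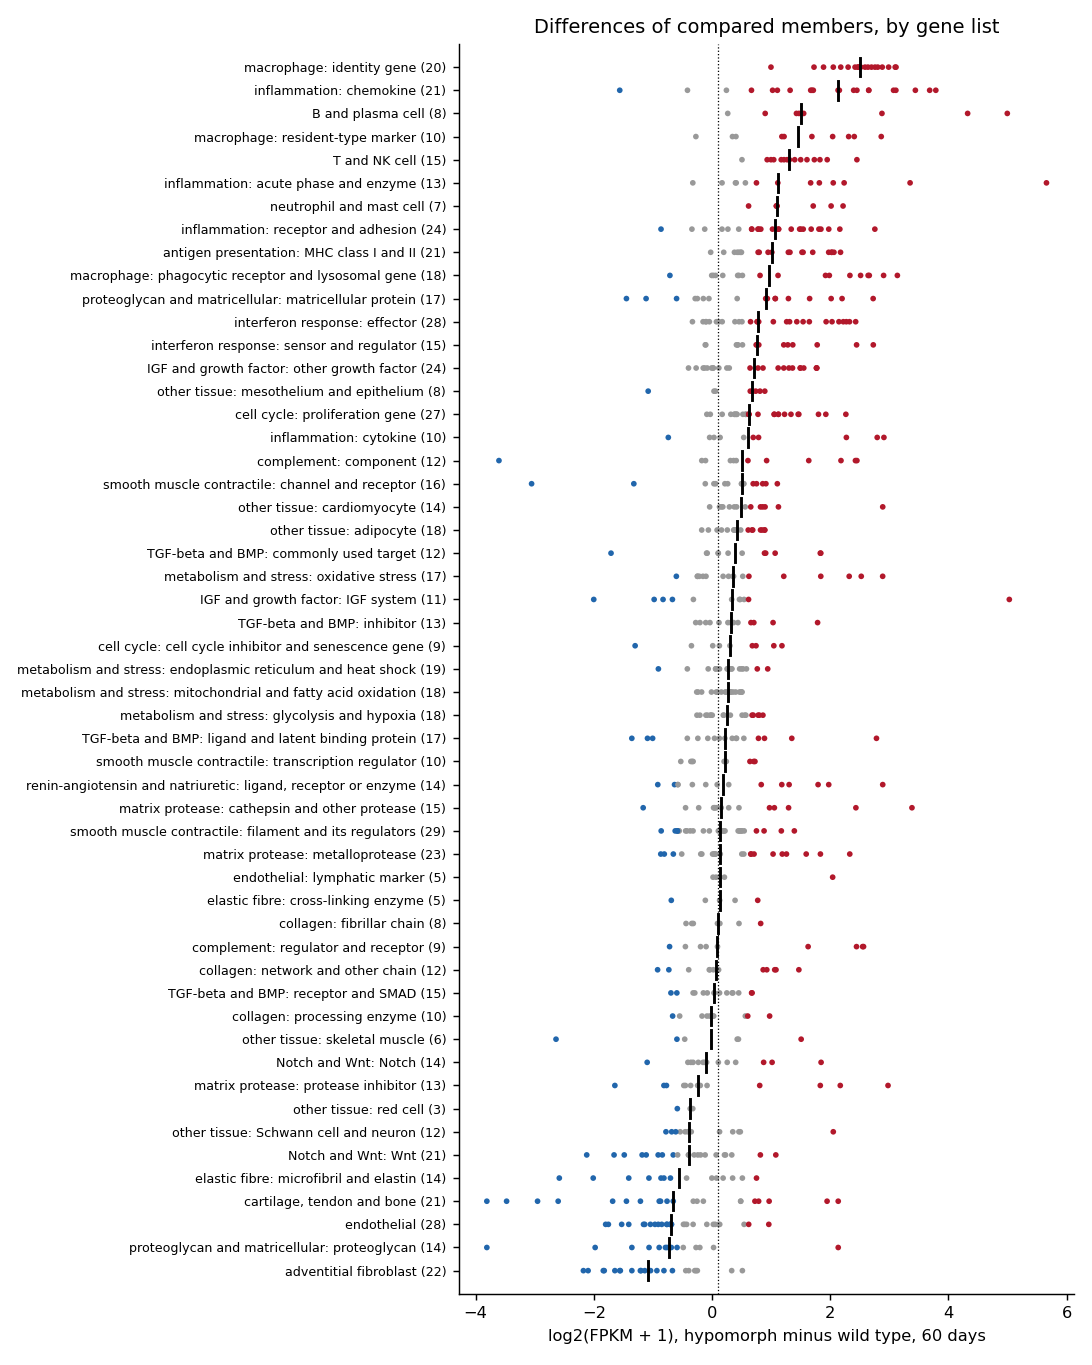
Differences at 60 days of compared members of each gene list, log2(FPKM + 1) of hypomorph minus wild type, 1 point per gene, red where at least 1.5-fold higher and blue where at least 1.5-fold lower, with a bar at the median and the number of compared members in brackets; the dotted line is the median of all compared genes, 0.11. Macrophage identity genes head the order with a median of 2.5 and adventitial fibroblast genes close it with -1.09.

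Endothelial transcripts stood lower. Of 28 compared markers 16 were at least 1.5-fold lower and 2 higher, with a median of -0.70 and a summed level of 1022 FPKM against 1770. Nos3, which makes the vasodilator nitric oxide, stood at 7.84 against 29.8 FPKM (-1.80), Pecam1, an adhesion molecule of endothelial junctions, at 78.1 against 266 (-1.75), and Tek, the angiopoietin receptor, at 9.18 against 28.4 (-1.53). Gja5, the connexin of arterial endothelium, stood at 7.99 against 38.3 FPKM. Of the 28 markers 7 were above 0 and 21 below. Among the former were Gpihbp1, which anchors lipoprotein lipase in capillaries, at 15.3 against 7.36 FPKM (0.96), and Kdr and Emcn at 6.29 against 4.01 and 21.5 against 19.9. Gpihbp1, Kdr and Emcn were picked after their values were seen, and whether capillary and other endothelial markers differ was not tested. Of 5 compared lymphatic markers 1 stood higher, Lyve1, which macrophages also carry, and the other 4 stood within 1.5-fold.

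Adventitial fibroblast transcripts stood lower as well, with 15 of 22 members at least 1.5-fold lower, 0 higher and a median of -1.09. Their summed level was 5861 FPKM against 13413. Entpd2, an ectonucleotidase, stood at 30.9 against 143 FPKM (-2.18), Gsn, the actin-severing protein gelsolin, at 873 against 3738 (-2.10), Clec3b, tetranectin, at 163 against 586 (-1.84) and Pi16, a marker of adventitial progenitor fibroblasts, at 262 against 929 (-1.82). Efemp1 and Igfbp4, at 0.51 and 0.33, were the 2 members above 0. Since fibroblasts also make decorin, Serpinf1 and Mfap5, these genes are counted both here and in the matrix lists.

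Cartilage, tendon and bone transcripts were spread widely, 11 of 21 at least 1.5-fold lower and 5 higher (median -0.66). Besides Chad, Angptl7, Cytl1 and Clec3a on the lower side, Cilp, a cartilage matrix protein, stood at 8.345 against 29.0 FPKM. Mgp, matrix Gla protein, an inhibitor of vessel calcification, was among the most abundant transcripts of either group at 10464 against 6060 FPKM (0.79), and Ibsp, bone sialoprotein, stood at 3.74 against 0.230 (1.95).

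Growth factor genes mostly stood higher, with 13 of 24 compared at least 1.5-fold higher and 0 lower (median 0.71). Angpt2, a destabilising ligand of the Tek receptor, stood at 58.2 against 16.3 FPKM (1.77), Fgf1 at 51.4 against 14.4 and Fgfr2 at 66.5 against 18.8, the last in a listed span shared with 41 genes. In the insulin-like growth factor system Igfbp2 stood far above the rest, while Igf2 stood at 4.24 against 20.0 FPKM (-2.00), Igf1 at 32.1 against 57.9 (-0.83) and Igfbp5 at 216 against 427 (-0.98); 2 of 11 stood higher and 4 lower, which became 4 of 12 and 3 with equal sums of FPKM.

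Notch3, the Notch receptor of smooth muscle, stood at 32.9 against 8.45 FPKM (1.84), and the ligand Dll1 at 2.24 against 5.93 (-1.10), in a Notch list with 3 of 14 higher and 1 lower. Wnt genes lay on the lower side, 8 of 21 at least 1.5-fold lower and 2 higher (median -0.40). The secreted inhibitors led them, Wif1 at 14.1 against 64.5 FPKM (-2.12), Sfrp2 at 210 against 666 (-1.66) and Sfrp4 at 51.0 against 117, with the ligand Wnt5a at 10.6 against 31.6 (-1.49).

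Proliferation genes stood higher at low levels: 15 of 27 compared stood at least 1.5-fold higher and 0 lower (median 0.62), 9 of the 27 being below 1 FPKM in wild type, and 6 of the 18 with at least 1 FPKM in both groups stood higher. Cdk1, the mitotic kinase, stood at 8.07 against 0.890 FPKM (2.26) and Top2a at 8.66 against 1.54. Of the listed subunits of the replicative helicase, Mcm5 (4.50 against 2.58 FPKM) and Mcm6 (21.2 against 13.97) stood at least 1.5-fold higher, and Mcm2, Mcm3 and Mcm4 stood within 1.5-fold. Of 9 cell cycle inhibitors 4 stood higher and 1 lower, Cdkn1a, p21, at 66.3 against 31.6 FPKM and Cdkn1c, p57, at 9.14 against 24.0.

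Metabolic lists differed among themselves. Of 18 glycolysis and hypoxia genes 5 stood higher and 0 lower (median 0.25), with Hif1a at 35.6 against 19.2 FPKM and Ldha at 279 against 174. Of 18 mitochondrial and fatty acid oxidation genes 0 stood higher and 0 lower. In the oxidative stress list 6 of 17 stood higher and 1 lower (median 0.35), the former including the phagocyte oxidase subunits Cybb (19.1 against 1.71 FPKM), Ncf1 (17.8 against 2.26) and Ncf4, while the smooth muscle oxidase Nox4 stood at 79.4 against 65.3 FPKM and Sod3, the extracellular superoxide dismutase, at 304 against 462 (-0.60). Among 14 clock genes 4 stood lower and 1 higher. The output genes Dbp, Nr1d1 and Hlf stood at 162 against 280, 115 against 178 and 13.1 against 28.4 FPKM, and Arntl, which is known to run in opposite phase to them, at 2.85 against 1.04. The labels used here give no hour of tissue collection.

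Tissue around the aorta was present in both pools. In the adipocyte list 7 of 18 genes stood at least 1.5-fold higher and 0 lower (median 0.42), with a sum of 2239 FPKM against 1587, Adipoq at 100.3 against 53.6 and the brown fat gene Ucp1 at 33.0 against 34.5. Skeletal muscle markers summed to 25.8 FPKM against 30.4, with Myh4 and Pvalb at 0 in wild type. Red cell markers summed to 4407 FPKM against 5629, with the near-identical Hba-a1 and Hba-a2 both lower within 1.5-fold. Schwann cell and neuron markers summed to 297 FPKM against 356. The part of these tissues in the differences above was not tested.

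The 60-day pattern was then set beside the earlier ages, whose tables were normalised separately. Of the 774 genes at least 2-fold higher at 60 days, 668 could be compared at 30 days, where 386 were again at least 2-fold higher and 7 stood at least 1.5-fold the other way. At 16 days 572 could be compared, with 77 again at least 2-fold higher and 23 the other way. Of the 276 lower genes, 92 of 262 were again at least 2-fold lower at 30 days and 43 of 258 at 16 days. Of all compared genes 3.75% stood at least 2-fold higher and 1.33% lower at 30 days, and 0.962% and 1.28% at 16 days. At 1.5-fold the shares were 8.72% and 5.18% at 30 days and 3.65% and 3.7% at 16 days.

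Genes on the lower side at 60 days had, in the median, higher wild-type levels at that age than at 16 days. Over the 271 genes at least 2-fold lower at 60 days that were above 0 at all ages, the median of log2(FPKM + 1) at 60 minus that at 16 days was 0.70 in wild type and -0.32 in the hypomorph; the 60-day values chose these genes, so this is a description. Gsn stood at 1041, 1809 and 3738 FPKM in wild type at 16, 30 and 60 days and at 805, 791 and 873 in the hypomorph. In the fibroblast list the median change of its genes from 16 to 60 days was 1.87 in wild type and 0.60 in the hypomorph. Its members at least 1.5-fold lower numbered 2, 10 and 15 at the 3 ages, and those at least 1.5-fold higher 4, 0 and 0. Pecam1 stood at 153, 216 and 266 FPKM in wild type and at 125, 128 and 78.1 in the hypomorph, and endothelial markers at least 1.5-fold lower numbered 0, 5 and 16. Hhip stood at 6.19, 14.3 and 25.7 FPKM in wild type and at 5.73, 5.72 and 2.79 in the hypomorph.

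On the higher side the median gene had a similar wild-type level at 60 and 16 days and a higher hypomorph level at 60 days. Over 756 genes at least 2-fold higher at 60 days, the median of 60 minus 16 days was -0.03 in wild type and 1.20 in the hypomorph; the 60-day values chose these genes too, and single genes and lists varied in wild type. Ctss stood at 16.8, 17.6 and 18.2 FPKM in wild type and at 31.3, 89.8 and 199 in the hypomorph, and Irf7 at 13.8, 10.4 and 11.6 against 11.3, 40.1 and 82.3. Igfbp2 stood at 12.6, 30.7 and 27.6 FPKM in wild type and at 147, 502 and 934 in the hypomorph. The interferon list had 0, 21 and 26 members at least 1.5-fold higher and 7, 0 and 0 lower at the 3 ages. T and NK cell markers had 0, 1 and 14 higher and 6, 2 and 0 lower of 7, 7 and 15 compared, and their sums were 69.6, 20.1 and 15.4 FPKM in wild type and 11.6, 20.6 and 78.0 in the hypomorph. Igkc stood at 5.58, 2.54 and 9.83 FPKM in wild type and 2.52, 7.54 and 344 in the hypomorph, so a gap of this size was seen in the 60-day pools alone.

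**Figure D5:**
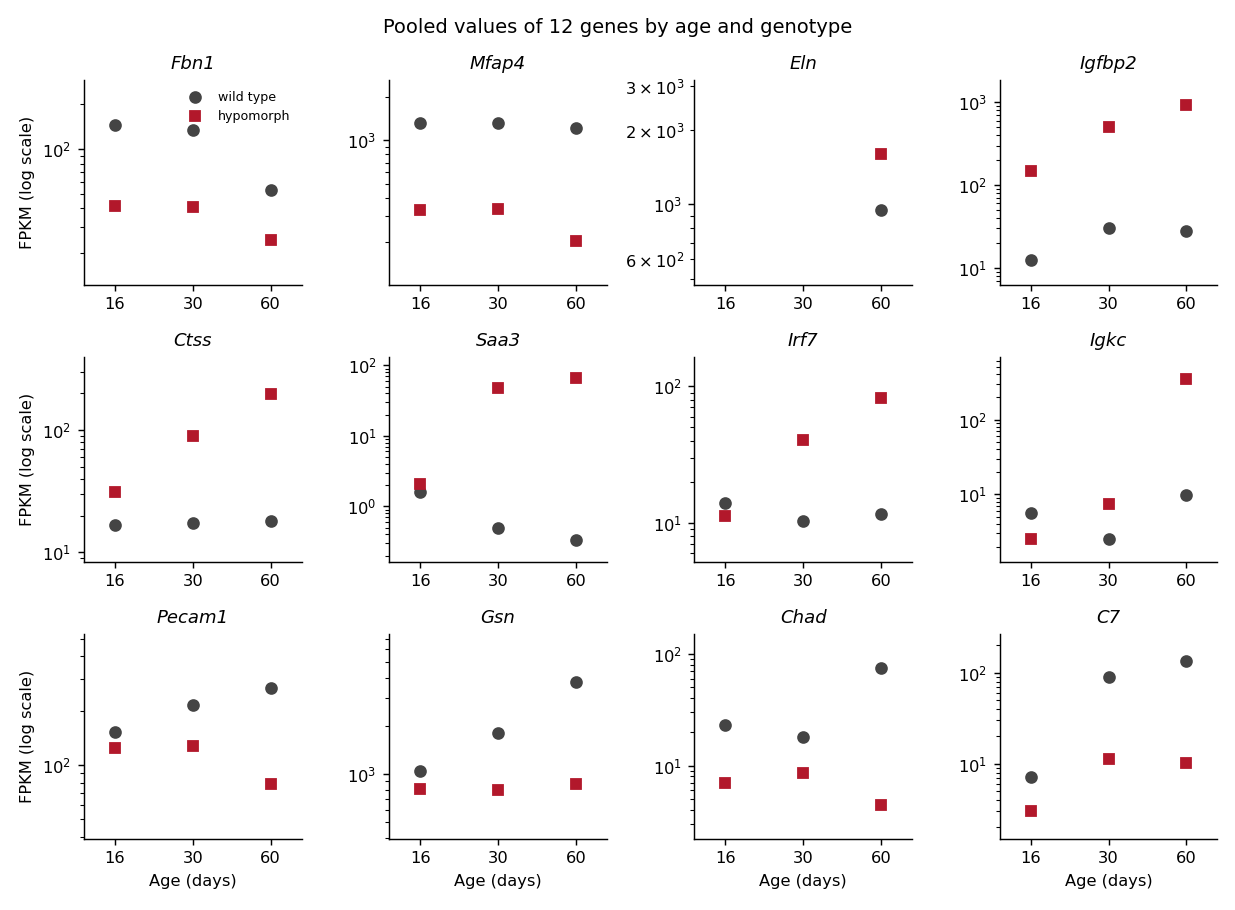
Pooled FPKM (log scale) of 12 genes at 16, 30 and 60 days in wild type (dark circles) and hypomorph (red squares), 1 pooled value per genotype and age from separately normalised tables; Eln is shown at 60 days alone because it was listed at 0 before. Hypomorph values of Ctss and Igfbp2 are highest at 60 days, and so are wild-type values of Pecam1 and Gsn.

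The fold difference in Fbn1 was smallest at 60 days, when its wild-type level was lowest. Its level was 146, 133.9 and 52.7 FPKM in wild type at the 3 ages and 41.4, 40.9 and 24.6 in the hypomorph, so folds were 3.52, 3.27 and 2.14. In the authors' deposited table of 16 days, the only table with a test, Fbn1 has a q-value of 0.00622. Mfap4 had its widest ratio at 60 days and stood at 1305, 1304 and 1216 FPKM in wild type and at 327, 334 and 202 in the hypomorph. A few genes stood at least 1.5-fold on the other side at an earlier age, 42 higher at 60 days and lower at 16 days, among them Spp1, Cthrc1, Ccl5 and Trbc2, and 22 the reverse. Between 30 and 60 days 32 went from lower to higher and 6 from higher to lower, the former holding the fat cell genes Adipoq, Plin1, Pparg and Fabp4.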

How the data were processed

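RNA of whole aorta had been sequenced as poly-A selected, strand-marking libraries read from both ends, per the labels' protocols. The submitters' processing notes name Cufflinks 1.3.0, TopHat2 2.0.8, SAMtools 0.1.7, Bowtie2 2.1.0 and the build mm9; settings, strand use and the libraries of each pool are not given in the sources used here. The deposited tables give FPKM, per the file headers, with 1 value for a gene in a group. The authors' table of 16 days also holds a q-value, as deposited, and those of 30 and 60 days hold no test. Total counts are unknown, so no interval or floor can be given.

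From the 60-day table the hypomorph's rows were set against those of wild type. Wild type is listed 3 times; the listings differed for 11 genes, each time because 1 was 0, and the larger value was kept. At this age 1 group of rows that matches no labelled sample was left out (2 in all). Symbols came from GENCODE M21 (32638 of 37668 identifiers matched), as did biotypes and transcript lengths, and promoter sequences from RefSeq on GRCm38.p6, in which 27025 genes have a window. Coordinates of GRCm38.p6 are given with sequences alone, and all others are those of the files, in mm9, counted from 1.

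The comparison, its gene lists and the genes named were chosen with earlier results of these data known. Of 934 genes in 26 lists, 928 are in the table. The text names Fbn1, the 15 largest and 15 most negative differences among genes with a symbol that are not predicted models or pseudogenes, and, for each role in a list, up to 4 members with the largest difference and up to 2 with the highest wild-type level; a few of these are not reported here, though the counts include them. The following, outside that rule, were chosen after their values were seen: Myh11, Klk8, Klk11, Dhh, Mfap2, Mfap5, Fbln5, Efemp1, Efemp2, Col3a1, Col6a1, Prelp, Thbs4, Tnxb, Postn, Mmp14, Tgfb1, Tgfb2, Tgfb3, Ltbp2, Bmp6, Smad2, Smad3, Smad4, Smad7, Id1, Pmepa1, Agtr1a, Myl4, Myl7, Actg2, Tpm2, Lamp2, Gpnmb, Ccl11, Vcam1, Icam1, C1ra, C1s1, Gbp2, Gbp3, Gbp7, Igtp, Iigp1, Irgm1, Ifi47, Isg15, Ifit1, Rsad2, Cxcl1, Cxcl2, Cxcl3, H2-D1, Gja5, Gpihbp1, Kdr, Emcn, Cilp, Ibsp, Mcm2, Mcm3, Mcm4, Mcm5, Mcm6, Ldha, Nox4, Ucp1, Trbc2 and Plin1. The counting was tested on simulated data. Protein sequences were not used here. Calculations used Python 3.11.15, numpy 2.4.6 and pandas 2.3.3, with plots from matplotlib 3.10.9.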

Additional observations from a re-analysis of the deposited data

How the results depend on the processing

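No paired analysis was possible because the tables give no value of a single library, and for the same reason no replicate could be left out. The alternatives were a pseudocount of 0.1, no filter on the mean, a mean of at least 5 FPKM, at least 1 FPKM in both groups, median ratio scaling, equal sums of FPKM, the smaller value above 0 of repeated listings and, chosen after seeing the data, differences centred within 10 classes of transcript length. Fbn1 stayed lower under each. The larger side of the macrophage and interferon lists stayed the higher one. For the endothelial, fibroblast and elastic fibre lists it stayed the lower one, and counts of all these lists stayed within 1.5 times. The median of the elastic fibre list was -0.11 in the main setting and 0.003 with equal sums of FPKM. Genes at least 2-fold lower numbered 437 with a pseudocount of 0.1 in place of 276. Genes at least 2-fold higher numbered 400 with a mean of at least 5 FPKM and 495 with at least 1 FPKM in both groups in place of 774, where fewer genes enter. Contractile genes at least 1.5-fold higher numbered 20 with equal sums of FPKM and 7 centred within classes of length in place of 12, in the last with more lower than higher, and the cause was not tested. Within that list, filament genes stood at 8 higher and 1 lower with equal sums. With at least 1 FPKM in both groups, 6 of 18 proliferation genes, 2 of 7 cytokines, 8 of 14 inflammatory receptors and 4 of 5 T and NK cell markers stood higher. Under median ratio scaling 4 adipocyte genes stood higher in place of 7, and with equal sums 3 mitochondrial genes stood higher in place of 0 and 2 clock genes lower in place of 4. Centred by length, 1224 genes stood at least 1.5-fold higher and 974 lower. Depth is unknown and sets no limit that can be given.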

Other observations

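Immediate early genes are induced within minutes of a stimulus or of handling tissue. Of 16 compared at 60 days, 13 had differences above 0 and 3 below, with a median of 0.39. At least 1.5-fold higher in the hypomorph were 5, and 1 was lower, a count of higher members that was 2 under median ratio scaling. Fos stood at 18.04 against 7.78 FPKM and Nr4a1 at 19.1 against 38.5. Among 19 endoplasmic reticulum and heat shock genes 2 stood higher, the chaperones Hsp90aa1 at 165 against 85.4 FPKM and Hspa1b at 70.4 against 41.0, and 1 lower, Trib3 at 2.35 against 5.29. Mesothelial and epithelial markers gave 5 of 8 higher and 1 lower, with the mesothelial Upk3b at 27.6 against 17.3 FPKM and the keratin Krt18 at 5.37 against 12.5.

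Other motifs were counted in the same promoter windows as a description. The serum response motif, the CArG box, was found in 3 of 25 promoters of contractile filament genes (those of Myl9, Myl6 and Vcl) and in 1.81% of all RefSeq promoters. The PU.1 motif GAGGAAGT was found in 1 of 14 macrophage identity promoters and in 3.69% of all. No match says only that these letters are not in the window.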
